A study of Mus musculus with 35 samples.

Results

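Ccl2, Ccl7, Ccl12 and Ccl8 encode small secreted CC chemokines, grouped here as attractants of monocytes from the blood. Ccr2 encodes the receptor through which inflammatory monocytes follow Ccl2, Ccl7 and Ccl12. These 5 genes were followed through mouse tracheas grafted to another site in a recipient, of 12393 genes with a probe set of their own on the array. Members were the probe sets annotated to exactly 1 of the 5 genes. That gave 7 probe sets, 1 for each chemokine and 3 for Ccr2, and all 7 had a log2 value of at least 5 in at least 5 arrays, as the tests required.

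The series held 35 arrays of total RNA from whole tracheal tissue, 5 in each of 7 groups. The group Native-0 was trachea that had not been transplanted. Iso-4, Iso-14 and Iso-25 were isografts, meaning grafts into recipients of matching major histocompatibility complex (MHC), taken on days 4, 14 and 25. Allo-4, Allo-14 and Allo-25 were allografts, into recipients of mismatched MHC, taken on the same days. All 6 graft groups had been through the surgery and lay outside the airway, and recipient cells could enter them, whereas Native-0 had none of this. The labels used here give neither the strains nor the age of the mice and do not say whether the 5 arrays of a group came from separate animals, so p-values measure the spread between arrays, which may be technical. In such bulk RNA, fewer cells of a type and less RNA per cell cannot be told apart.

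Native-0 carried the defining genes of trachea: Scgb1a1, a secretory cell product, had a mean log2 value of 14.44 ± 0.07 (SD, n = 5), and the cartilage collagen Col2a1 11.07 ± 0.92. Array medians ran from 5.07 to 5.30, and no arrays held identical values. A pair of arrays stood apart from the others of their group, with a median correlation to them under 0.9: Native-0 replicate 5 at 0.894 and Iso-25 replicate 5 at 0.854. The mean log2 level of 4 skin marker genes was 10.23 and 9.94 in these arrays. In the other arrays of Native-0 and Iso-25 it was at most 4.64 and 5.25. Arrays of other groups also held high values, among them Allo-4 replicates 1 and 3 (9.13 and 9.36). What set arrays apart was not tested. Iso-25 replicate 5 was also the highest of its group for Ccl2, Ccl7, Ccl12 and Ccl8, and values without it are given where they change a call.

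The inflammatory chemokine genes are known to be switched on by cytokines such as interleukin-1 and tumour necrosis factor in stromal, endothelial, epithelial and myeloid cells. Ccl2, Ccl7 and Ccl12 signal through Ccr2, a receptor coupled to inhibitory G proteins, while mouse Ccl8 is known chiefly as a ligand of Ccr8. Inflammatory monocytes use Ccr2 both to leave the bone marrow and to enter injured tissue, where they become macrophages and dendritic cells and usually lose the receptor.

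Levels below are the deposited log2 values. The brightness of different probe sets is not a measure of their relative amounts, so levels are compared only within a probe set, across groups. Tests of unequal change set the changes of different probe sets side by side. A difference is in log2 units, with its standard error, from a single limma fit over all 35 arrays. Calls rest on p-values adjusted by Benjamini-Hochberg over the 13678 probe sets tested, with 0.05 as the limit. Where arrays of different groups are said not to overlap, the share of all probe sets that separate in the same way was not counted. The level of each gene in every array is plotted by group.

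**Figure D1:**
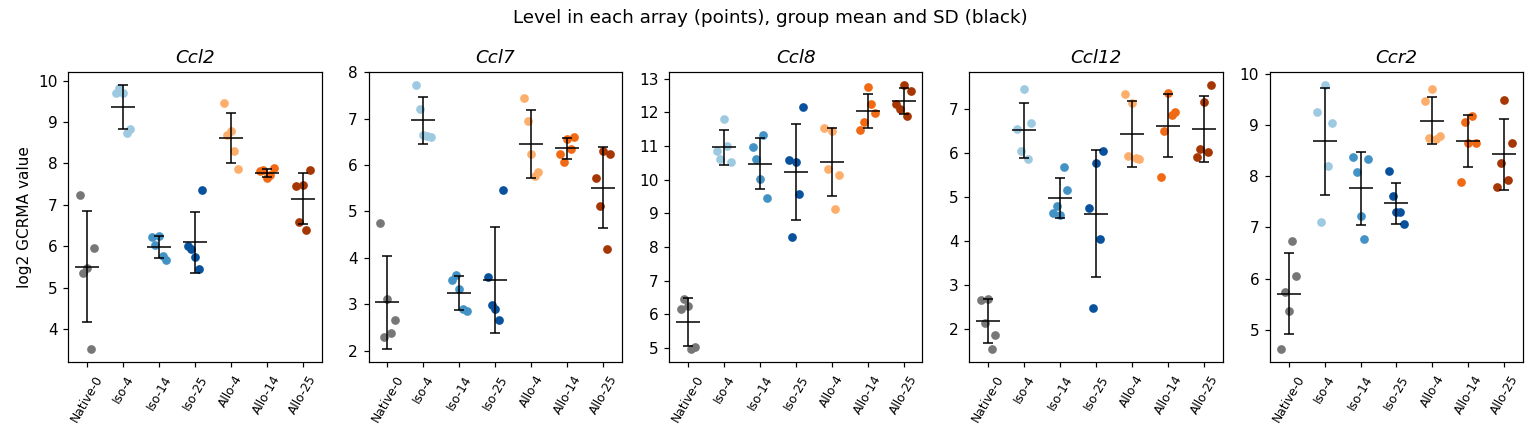
Log2 level (vertical axis, a separate scale for each gene) of Ccl2, Ccl7, Ccl8, Ccl12 and Ccr2 in the 5 arrays of each group (points), with the group mean and SD in black. Ccl2 and Ccl7 are high in both day 4 groups and near native trachea in Iso-14, where every array lies under those of Allo-14, whereas Ccl8 is far above native trachea in every graft group.

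Ccl2 (probe set 1420380_at), the best known monocyte attractant, was highest in day 4 grafts of either kind and fell back to near the native level in isografts. The Native-0 arrays read 7.23, 5.35, 5.47, 3.51 and 5.95. The Iso-4 arrays read 9.71, 9.82, 9.71, 8.74 and 8.83, and the Allo-4 arrays read 9.46, 8.69, 8.79, 8.29 and 7.85. Every day 4 graft was above every native trachea, and the day 4 kinds overlapped. By day 14 the isografts read 6.21, 6.03, 6.24, 5.76 and 5.67, while the allografts read 7.82, 7.83, 7.63, 7.71 and 7.88, with a gap between the kinds. On day 25 the isografts read 6.005, 5.93, 5.74, 5.44 and 7.35 and the allografts 7.45, 6.58, 7.47, 6.40 and 7.85, and here the kinds overlapped through Iso-25 replicate 5. Ordered by mean, the groups ran Iso-4, Allo-4, Allo-14, Allo-25, Iso-25, Iso-14 and Native-0, and no neighbours in that order differed past the threshold. The smallest adjusted p among neighbours was 0.095, between Allo-25 and Iso-25.

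Ccl7 (1421228_at), a close relative of Ccl2 and its neighbour on the chromosome, was likewise high in day 4 grafts and fell in isografts by day 14. The Native-0 arrays read 4.75, 2.30, 3.12, 2.38 and 2.65. The Iso-4 arrays read 7.72, 7.21, 6.65, 6.62 and 6.60, and the Allo-4 arrays 7.46, 6.96, 6.24, 5.77 and 5.84. Day 4 again put every graft above every native trachea. The Iso-14 arrays read 3.53, 3.62, 3.33, 2.89 and 2.85, under the log2 value of 5 used here to count a probe set as detected, whereas the Allo-14 arrays read 6.23, 6.06, 6.55, 6.35 and 6.60. The Iso-25 arrays read 3.58, 2.99, 2.90, 2.66 and 5.46 and the Allo-25 arrays 5.72, 5.12, 6.30, 4.19 and 6.25. Here the kinds overlapped through Iso-25 replicate 5, which lay above Allo-25 replicates 2 and 4. The order of means was the same as for Ccl2, and it had 1 step between neighbours that differed, from Allo-25 down to Iso-25 (2.00 ± 0.46 SE, adjusted p 0.00178).

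Ccl12 (1419282_at), a Ccr2 ligand of the mouse with no direct human counterpart, was at the bottom of the scale in native trachea and had close means in all 3 allograft groups. The Native-0 arrays read 2.67, 2.13, 2.67, 1.54 and 1.85. The Iso-4 arrays read 6.54, 6.06, 7.47, 5.88 and 6.69, and the Allo-4 arrays 7.35, 5.94, 7.15, 5.88 and 5.88. Both kinds were far above native trachea and overlapped each other. The isografts then read 4.63, 4.80, 4.60, 5.68 and 5.16 on day 14 and 4.76, 2.47, 5.78, 4.05 and 6.05 on day 25. The allografts read 5.45, 6.52, 7.38, 6.87 and 6.94 on day 14 and 5.91, 6.10, 7.16, 6.03 and 7.55 on day 25. At both later days the highest isograft array overlapped the lowest allograft array. The means of Allo-14, Allo-25, Iso-4 and Allo-4 lay within 0.19 of each other, from 6.44 to 6.63. The order of means had 2 steps that differed, from Allo-4 to Iso-14 (1.47 ± 0.49, adjusted p 0.027) and from Iso-25 to Native-0 (2.45 ± 0.49, adjusted p 7.50e-04).

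Ccl8 (1419684_at) was raised in every graft group and had its highest means in the later allografts. The Native-0 arrays read 6.17, 6.45, 6.25, 4.97 and 5.04. The Iso-4 arrays read 10.85, 10.62, 11.81, 11.01 and 10.51, and the Allo-4 arrays 11.55, 10.32, 11.45, 9.13 and 10.15. No graft array of any group overlapped native trachea, and on day 4 the kinds overlapped. The isografts read 10.98, 10.61, 10.02, 11.34 and 9.45 on day 14, and 10.58, 8.30, 10.53, 9.59 and 12.16 on day 25, the widest spread of any group for this gene. The allografts read 11.47, 11.71, 12.76, 12.26 and 11.99 on day 14, all above the isografts. On day 25 the allografts read 12.24, 12.11, 12.81, 11.89 and 12.65, and Iso-25 replicate 5 reached into that range. Ordered by mean, Allo-25 and Allo-14 came first, then Iso-4, Allo-4, Iso-14, Iso-25 and Native-0, and only the last step, from Iso-25 to Native-0, differed (4.46 ± 0.49, adjusted p 1.23e-07).

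In the mouse gene table of RefSeq the 4 chemokine genes lie in a cluster on chromosome 11, in the order Ccl2, Ccl7, Ccl11, Ccl12, Ccl8 and Ccl1 among protein-coding genes. Ccr2 lies apart from them, on chromosome 9. Ccl12 and Ccl8 are thus direct neighbours, and because their levels moved together from array to array, as described further on, the 250 bases before each start are shown from RefSeq (GRCm38.p6), both on the plus strand and 5′ to 3′. The Ccl12 window is chr11:82101595-82101844 and the Ccl8 window is chr11:82114935-82115184. Capitals mark matches to TATAAA on the plus strand and, in Ccl8, a minus-strand match to AANNGAAA, the letters searched for interferon regulatory factors.
Ccl12: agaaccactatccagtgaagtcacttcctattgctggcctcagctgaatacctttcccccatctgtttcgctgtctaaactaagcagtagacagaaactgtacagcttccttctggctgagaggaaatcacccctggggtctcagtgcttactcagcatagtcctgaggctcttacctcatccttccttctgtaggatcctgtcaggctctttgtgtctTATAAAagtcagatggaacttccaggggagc
Ccl8: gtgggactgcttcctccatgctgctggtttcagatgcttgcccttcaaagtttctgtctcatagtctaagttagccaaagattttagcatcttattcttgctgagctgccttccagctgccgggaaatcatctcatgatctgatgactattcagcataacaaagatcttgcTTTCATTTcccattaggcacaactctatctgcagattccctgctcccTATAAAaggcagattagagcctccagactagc
TATAAA lay at -31 to -26 of the Ccl12 start and at -32 to -27 of the Ccl8 start, counting the base before the start as -1. Of 32851 promoter windows of this length, 12.4% held TATAAA on either strand. The AANNGAAA match lay at -79 to -72 in Ccl8, and 21.3% of windows held one. Neither window held TGANTCA (AP-1, 6.75% of windows) or the kappaB motif (7.25%), each searched on both strands. Set base by base at equal distance from the start, without gaps, the windows matched at 90 of 250 positions (36%), and they shared 3 runs of 8 bases: GGAAATCA starting at -128 in both, TCAGCATA at -98 in Ccl12 and -100 in Ccl8, and TATAAAAG at the TATA match. These matches are letters in a window and show neither binding nor use.

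Ccr2, the receptor, had 3 probe sets, and the brightest over all arrays (1421186_at) stands for the gene. Its Native-0 arrays read 4.62, 5.73, 5.37, 6.74 and 6.05. The Iso-4 arrays read 9.26, 7.11, 9.78, 8.21 and 9.05 and the Allo-4 arrays 9.46, 8.75, 9.70, 8.74 and 8.80. All day 4 grafts lay above native trachea, and the kinds overlapped. The isografts read 8.38, 8.09, 7.23, 6.77 and 8.33 on day 14 and 8.11, 7.61, 7.29, 7.30 and 7.07 on day 25. The allografts read 7.89, 9.07, 8.65, 9.18 and 8.65 on day 14 and 7.79, 8.26, 9.50, 7.93 and 8.65 on day 25. Isografts and allografts overlapped on every day, as they did for Ccl12. Ordered by mean, the groups ran Allo-4, Allo-14, Iso-4, Allo-25, Iso-14, Iso-25 and Native-0, and only Iso-25 and Native-0 differed among neighbours (1.77 ± 0.42, adjusted p 0.00384).

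The other Ccr2 probe sets were dimmer. The levels of 1421188_at ran from 4.27 in Native-0 to 6.74 in Allo-4, and the means of 1421187_at ran from 3.05 in Native-0 to 6.18 in Allo-4 with an SD of up to 1.67 within a group. After group means were removed, 1421186_at correlated with 1421187_at at r = 0.52 and with 1421188_at at r = 0.49 over 35 arrays, while the 2 dimmer sets gave r = -0.30 with each other. Single-array Ccr2 values thus depended on the probe set.

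**Figure D2:**
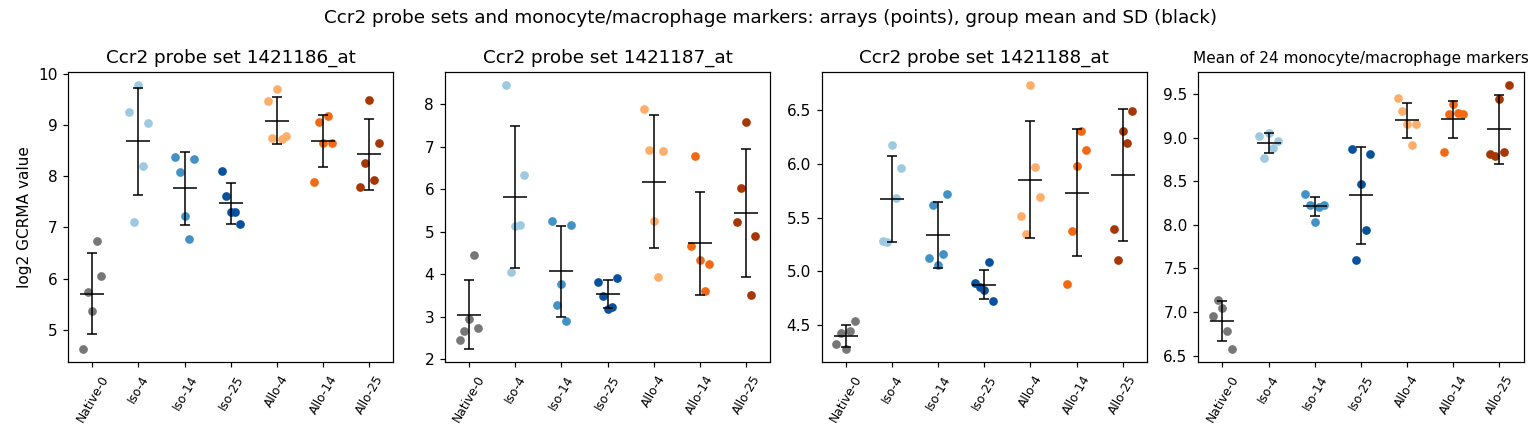
Log2 level of the 3 Ccr2 probe sets and the mean log2 level of 24 monocyte and macrophage marker genes (vertical axes, separate scales) in the 5 arrays of each group, with group mean and SD in black. All 4 panels have their lowest mean in Native-0, and in 1421188_at the Iso-25 arrays lie under every Allo-25 array.

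Set against native trachea, all 5 genes were higher in Iso-4, Allo-4, Allo-14 and Allo-25, and 3 of 5 were higher in Iso-14 and Iso-25. Of all probe sets tested, 21.1% were called higher in Iso-4, 22.2% in Allo-4, 21.7% in Allo-14, 17.7% in Allo-25, 12.1% in Iso-14 and 8.98% in Iso-25. The median difference of the 5 genes was 3.92 in Iso-4 against -0.02 over all probe sets, and 1.77 in Iso-25 against 0.00. These 6 comparisons use the same 5 native arrays.

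In Iso-4 the differences from native trachea were 3.86 ± 0.42 for Ccl2 (14.5-fold, adjusted p 1.35e-08), 3.92 ± 0.46 for Ccl7 (15.1-fold) and 4.35 ± 0.49 for Ccl12 (20.4-fold). All native arrays of Ccl7 and Ccl12 were under log2 5, and with values under 4 raised to 4 these came to 2.81 for Ccl7 (7.02-fold) and 2.53 for Ccl12 (5.77-fold), still called. Ccl8 differed by 5.18 ± 0.49 (36.4-fold) and Ccr2 by 2.98 ± 0.42 (7.89-fold). In Allo-4 they ranged from 3.12 for Ccl2 to 4.74 for Ccl8. The day 4 response of the family was thus present in grafts of either MHC match. In Iso-14 and Iso-25 neither Ccl2 (0.48 and 0.59 above native, adjusted p 0.40 and 0.347) nor Ccl7 (0.20 and 0.48, adjusted p 0.764 and 0.499) was called. Ccl8 remained 4.70 ± 0.49 above native trachea in Iso-14 (26.1-fold, adjusted p 3.34e-08) and 4.46 in Iso-25. Ccl12 was 2.80 ± 0.49 higher in Iso-14 (adjusted p 1.06e-04) and 2.45 higher in Iso-25, although native Ccl12 lay at the floor of the scale. With values under 4 raised to 4, these Ccl12 differences came to 0.97 (adjusted p 0.0686) and 0.93 (adjusted p 0.116), and the calls were lost. Ccr2 was 2.06 ± 0.42 higher in Iso-14 (adjusted p 6.13e-04) and 1.77 higher in Iso-25. With 1421187_at neither the Iso-14 call (1.02, adjusted p 0.306) nor the Allo-14 call (1.68, adjusted p 0.0637) was made. The Iso-25 call for Ccr2 was not made with 1421188_at (0.48, adjusted p 0.224), with 1421187_at (0.48, adjusted p 0.696) or with the mean of all 3 (0.91, adjusted p 0.0763). In Allo-25, Ccl8 was 6.56 ± 0.49 above native trachea (94.6-fold, adjusted p 1.84e-12), Ccl12 4.38, Ccl7 2.47, Ccr2 2.72 and Ccl2 1.65 (adjusted p 0.00259). With the same floor the Allo-25 values were 2.55 for Ccl12 and 1.36 for Ccl7, both called.

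**Figure D3:**
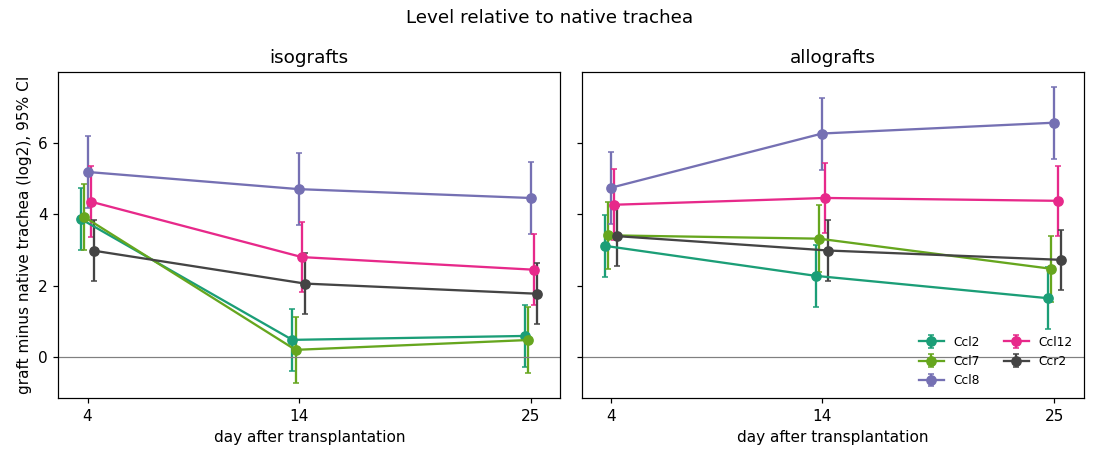
Difference of each gene from Native-0 (vertical axis, log2 units, point and 95% confidence interval) by day (horizontal axis), for isografts on the left and allografts on the right. Ccl2 and Ccl7 come to within 0.60 of native trachea in isografts on days 14 and 25, whereas Ccl8 stays above 4.4 in isografts and reaches 6.56 in Allo-25.

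Between days 4 and 14 the isografts lost most of their Ccl2 and Ccl7 signal, while Ccl8 and Ccr2 were not called. Ccl2 fell by 3.38 ± 0.42 on the log2 scale (10.4-fold, adjusted p 5.79e-07), Ccl7 fell by 3.72 ± 0.46 (13.2-fold, adjusted p 4.32e-07) and Ccl12 fell by 1.55 ± 0.49 (2.94-fold, adjusted p 0.0197). Every Iso-14 array of Ccl7 was under log2 4, and with values raised to 4 its fall was -2.96 (7.79-fold, adjusted p 1.06e-07). These were 3 of 5 members, where 12.8% of all probe sets were called lower. Ccl8 differed by -0.48 (95% confidence interval -1.49 to 0.53, adjusted p 0.544) and Ccr2 by -0.92 (-1.77 to -0.07, adjusted p 0.115). The Ccl12 call was lost without Iso-4 replicate 3, the highest array of its group (-1.32, adjusted p 0.0623), and a Ccr2 call was gained without Iso-4 replicate 2 (-1.31, adjusted p 0.0171) and with the mean of the 3 probe sets (-1.01, adjusted p 0.0398).

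Whether 2 members changed unequally was tested on the difference between them within each array, by a two-sided exact permutation test over the 252 ways to assign 10 arrays to the groups, with 30 such tests adjusted together. They were chosen after the values had been seen. From Iso-4 to Iso-14, the change of Ccl2 was -2.90 relative to Ccl8, -1.83 relative to Ccl12 and -2.46 relative to Ccr2, each with an exact p of 0.00794, the smallest this design gives, and an adjusted p of 0.017. The change of Ccl7 was -3.24 relative to Ccl8, -2.16 relative to Ccl12 and -2.80 relative to Ccr2, at the same exact p and adjusted p. By these probe sets, both genes thus moved further down than the other 3. Probe sets of the same gene can also change unequally. Over this interval those of Ccr2 gave -0.92 (1421186_at, the set used in the test), -0.34 (1421188_at) and -1.76 (1421187_at). The part of the probe set in an unequal change was not tested, here or in the other tests of this kind. Ccl2 and Ccl7 did not pass against each other (0.34, adjusted p 0.214), nor did Ccl8 against Ccl12 (1.07, adjusted p 0.07). With values under 4 raised to 4, Ccl7 against Ccl12 no longer passed (-1.41, adjusted p 0.0733).

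Later isografts and the allograft series held no called change of a member. From Iso-14 to Iso-25 limma called 0 of 5 members and 0% of probe sets in either direction, with 0 members at an unadjusted p under 0.05. From Allo-14 to Allo-25 it called 0 of 5 members, with 0 at an unadjusted p under 0.05, where 3.08% of probe sets were called. The values for Ccl2 and Ccl7 over that interval were -0.63 and -0.84, with confidence intervals of -1.49 to 0.24 and -1.77 to 0.09. From Allo-4 to Allo-14 it called 0 of 5, against 7.99% of probe sets, with 1 member, Ccl8, at an unadjusted p under 0.05. Ccl8 was 1.52 ± 0.49 higher (2.86-fold, adjusted p 0.0531). It was called without Allo-4 replicate 1 (1.78, adjusted p 0.0289), without Allo-4 replicate 3 (1.75, adjusted p 0.0344) and without the 2 arrays that stood apart (1.52, adjusted p 0.0231), and over all settings that left out 1 array its adjusted p ran from 0.0289 to 0.183. In the exact test within arrays, the change from Allo-4 to Allo-14 was -2.36 for Ccl2 and -1.61 for Ccl7 relative to Ccl8, and that of Ccl8 exceeded Ccl12 by 1.33 and Ccr2 by 1.92, each with an adjusted p of 0.017. By these probe sets, Ccl8 thus departed from the other 4 members over this interval. Ccl2 changed by -0.75 relative to Ccl7 (exact permutation, adjusted p 0.0317).

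The allograft-isograft comparison at each day addresses how the response to a mismatched graft departs from the response to transplantation itself. On day 4 limma called 0 of 5 members, with 0 at an unadjusted p under 0.05, where 0.600% of probe sets were called in either direction. The 4 chemokines had values from -0.74 for Ccl2 (95% confidence interval -1.61 to 0.12) to -0.09 for Ccl12 (-1.08 to 0.90), and Ccr2 had 0.41 (-0.44 to 1.26). Each interval still leaves room for a difference of over 1 log2 unit in some direction. The lower limits of Ccl7 and Ccl8 were -1.44 and -1.45.

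On day 14 all 4 chemokines were higher in allografts, and the receptor was not called. Ccl7 differed most, by 3.11 ± 0.46 (8.66-fold, adjusted p 4.77e-06), then Ccl2 by 1.79 ± 0.42 (3.46-fold, adjusted p 0.00219), Ccl12 by 1.66 ± 0.49 (3.15-fold, adjusted p 0.0139) and Ccl8 by 1.56 ± 0.49 (2.94-fold, adjusted p 0.024). With values under 4 raised to 4 the Ccl7 difference was 2.36 (5.13-fold, adjusted p 2.84e-06). For Ccl2, Ccl7 and Ccl8 the kinds did not overlap, a separation whose share over all probe sets was not counted. Ccr2 differed by 0.93 ± 0.42 (adjusted p 0.129). The 4 of 5 members called higher stand beside 10.0% of probe sets. The median difference was 1.66 over the members and 0.05 over all probe sets. The Ccl8 call was lost without Iso-14 replicate 3 (1.44, adjusted p 0.0596), Iso-14 replicate 5 (1.30, adjusted p 0.0849), Allo-14 replicate 3 (1.38, adjusted p 0.0754) or Allo-14 replicate 4 (1.504, adjusted p 0.0511). Centring each array on 8 reference genes lowered every difference by 0.24, and then Ccl8 was not called (1.32, adjusted p 0.0517) while Ccl2, Ccl7 and Ccl12 were. Over all probe sets that centring changed the split from 1371 higher and 1143 lower to 821 higher and 2233 lower. Of the 8 reference genes, 2 were themselves called higher in Allo-14 than in Iso-14 and 0 lower, so this centring was not neutral.

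Ccl7 differed by more than the other members on day 14: by 1.56 more than Ccl8, 1.46 more than Ccl12 and 2.19 more than Ccr2, while Ccl2 stood at -1.32 relative to Ccl7 (exact permutation within arrays, each adjusted p 0.017). With values under 4 raised to 4, which lifts all Iso-14 arrays of Ccl7, these came to 0.80, 0.70, 1.43 and -0.57 with adjusted p from 0.0595 to 0.132, and none passed. The larger Ccl7 difference thus depended on values near the bottom of the scale in isografts. The Ccl7 difference itself was 2.36 with that floor and stayed called.

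On day 25, 3 of 5 members were higher in allografts, where 6.38% of probe sets were. Ccl8 differed by 2.11 ± 0.49 (4.32-fold, adjusted p 0.00227), Ccl7 by 2.00 ± 0.46 (3.99-fold, adjusted p 0.00178) and Ccl12 by 1.93 ± 0.49 (3.81-fold, adjusted p 0.00446). With values under 4 raised to 4, which lifts 4 Iso-25 arrays of Ccl7, the Ccl7 difference was 1.22 (2.33-fold, adjusted p 0.00974). The median was 1.93 over the members and 0.01 over all probe sets, and all 5 members had an unadjusted limma p under 0.05. Ccl2 differed by 1.06 ± 0.42 (adjusted p 0.095) and was called without Iso-25 replicate 5 (1.37, adjusted p 0.0228). Without that array the differences of Ccl7, Ccl8 and Ccl12 were 2.48, 2.59 and 2.29. The Ccl12 call was lost when only the arrays of Iso-25 and Allo-25 entered the fit (adjusted p 0.0783). Ccr2 differed by 0.95 ± 0.42 with its brightest probe set (adjusted p 0.137), by 1.03 ± 0.27 with 1421188_at (adjusted p 0.0062, arrays without overlap), by 1.92 ± 0.74 with 1421187_at (adjusted p 0.0823) and by 1.30 with the mean of the 3 (adjusted p 0.00928). Whether Ccr2 counts as higher on day 25 thus depends on the probe set. Reference-gene centring changed the split of all probe sets from 872 higher and 1167 lower to 547 higher and 2310 lower. Of the 8 reference genes, 1 was itself called higher in Allo-25 than in Iso-25.

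**Figure D4:**
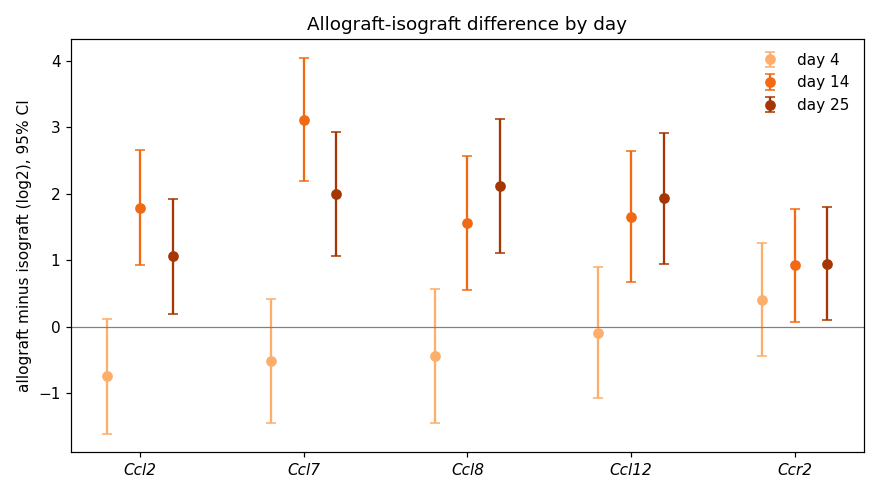
Allograft minus isograft difference (vertical axis, log2 units, point and 95% confidence interval) of each gene on days 4, 14 and 25. Day 4 values lie between -0.74 and 0.41, the day 14 value of Ccl7 is the highest at 3.11, and Ccr2 stays under 1 on every day.

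The change of the allograft-isograft difference between days was tested directly. From day 4 to day 14 the difference grew by 2.54 ± 0.60 for Ccl2 (adjusted p 0.00637) and by 3.62 ± 0.65 for Ccl7 (adjusted p 3.50e-04), 2 of 5 members where 2.55% of probe sets grew. The values for Ccl8 (2.00, adjusted p 0.088), Ccl12 (1.74, adjusted p 0.145) and Ccr2 (0.52, adjusted p 0.721) did not pass. With values under 4 raised to 4 the Ccl7 growth was 2.87 to day 14 (adjusted p 1.37e-04) and 1.73 to day 25 (adjusted p 0.024). Ccl8 was called to day 14 without Allo-4 replicate 1 (2.26, adjusted p 0.0479) and without the 2 arrays that stood apart (2.00, adjusted p 0.0402). From day 4 to day 25 it grew by 2.51 ± 0.65 for Ccl7 (adjusted p 0.0139) and by 2.55 ± 0.70 for Ccl8 (adjusted p 0.0231), 2 of 5 members where 1.24% of probe sets did. The Ccl8 call was lost without Iso-4 replicate 3 (2.34, adjusted p 0.0537), Iso-25 replicate 2 (2.07, adjusted p 0.0588), Iso-25 replicate 4 (2.39, adjusted p 0.0541) or Allo-4 replicate 4 (2.20, adjusted p 0.0597). It was also lost with only the arrays compared (adjusted p 0.0593). Without Iso-25 replicate 5, Ccl2 (2.12, adjusted p 0.0209) and Ccl12 (2.37, adjusted p 0.0253) were called too, and Ccl12 was also called without Iso-25 replicate 3 (2.31, adjusted p 0.0447) and Ccl2 without Allo-4 replicate 1 (2.01, adjusted p 0.0453). From day 14 to day 25 limma called 0 of 5, with 0 at an unadjusted p under 0.05, where 1.07% of probe sets were called. Over days 4 to 14, when the difference grew for Ccl2 and Ccl7, both genes fell in isografts, and neither was called in allografts (Ccl2 -0.84, adjusted p 0.249, and Ccl7 -0.09, adjusted p 0.939).

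With the group means removed, 5 of the 6 pairs of chemokines deviated together from array to array. Ccl2 and Ccl7 deviated together (r = 0.81, rho = 0.82, n = 35 arrays, adjusted p 1.00e-04 for r by permutation within groups, over 10 pairs), and so did Ccl8 and Ccl12 (r = 0.81, rho = 0.74, permutation adjusted p 1.00e-04). The unadjusted p of the latter was 1.00e-05, the smallest that 100000 permutations can give. Without the 2 arrays farthest from the median, r was 0.83 for Ccl2 with Ccl7 and 0.70 for Ccl8 with Ccl12. Across the pairs r was lower: 0.48 for Ccl2 and Ccl8 (permutation adjusted p 0.0244), 0.43 for Ccl2 and Ccl12 (0.0271), 0.55 for Ccl7 and Ccl8 (0.024) and 0.46 for Ccl7 and Ccl12 (0.0527). Without the 2 arrays that stood apart these 4 were between 0.33 and 0.40, while r was 0.81 for Ccl2 with Ccl7 and 0.77 for Ccl8 with Ccl12. Whether r within a pair exceeded r across pairs was not tested. For the 4 values across pairs, the share of all probe sets with such a correlation was not counted.

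Ranked by such within-group correlation over the 13677 other probe sets, Ccl7 came in place 1 for Ccl2, and Ccl2 in place 2 for Ccl7. Ccl12 came in place 1 for Ccl8, and Ccl8 in place 3 for Ccl12. These ranks are a description across arrays that share their groups. Both pairs also keep to the gene order on chromosome 11, where Ccl11, an eosinophil attractant, lies between them. Ccl11 had means of 7.03 in Native-0, 7.76 in Iso-4, 6.97 in Allo-4, 8.54 in Iso-25 and 8.35 in Allo-25. Probe sequences were not used here, so signal of a related chemokine on a probe set was not tested.

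**Figure D5:**
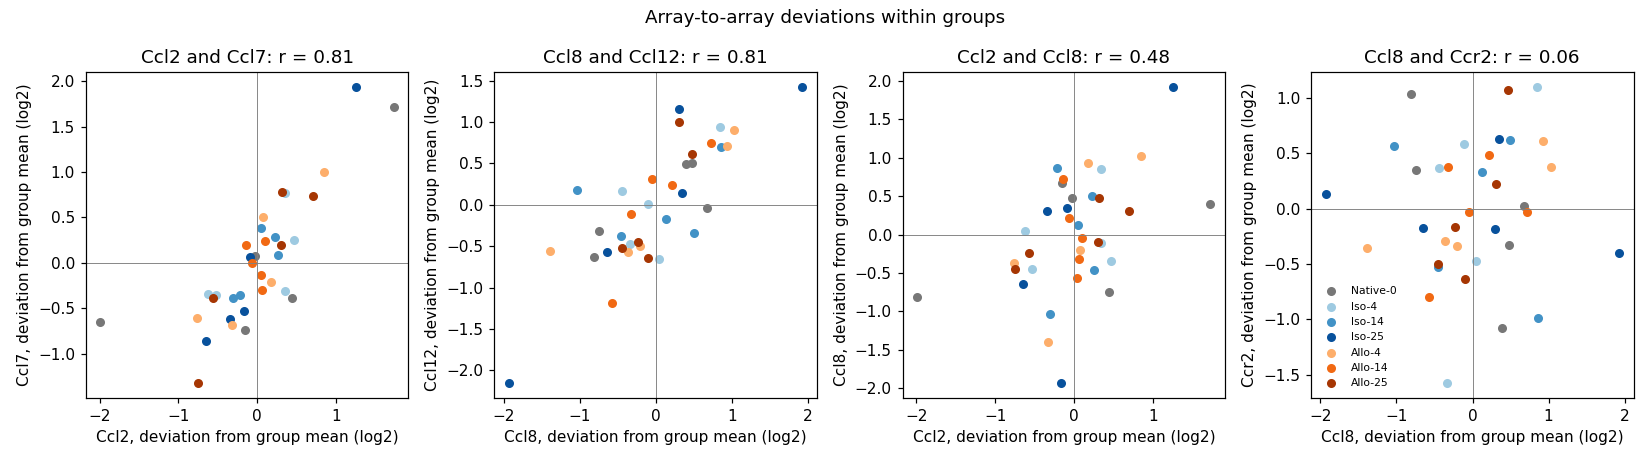
Deviation of each array from its group mean (both axes, log2 units, 35 arrays, colour by group) for 4 pairs of genes. Points follow the diagonal for Ccl2 with Ccl7 and for Ccl8 with Ccl12 (r = 0.81 each), more loosely for Ccl2 with Ccl8 (r = 0.48) and not for Ccl8 with Ccr2 (r = 0.06).

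For Ccr2, by its brightest probe set, no correlation with a chemokine passed. Its r was -0.20 with Ccl2, -0.07 with Ccl7, 0.06 with Ccl8 and 0.20 with Ccl12, with permutation adjusted p from 0.32 to 0.723 (n = 35). Leaving out the 2 farthest arrays turned the sign for Ccl2 (0.14) and Ccl7 (0.17) and gave 0.31 for Ccl12 and 0.16 for Ccl8.

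Many marker genes of monocytes and macrophages also differed between groups. Counts for this and the later lists stand beside the shares of all probe sets. Those called higher were 21.1% in Iso-4 against Native-0, and in allografts against isografts 10.0% on day 14 and 6.38% on day 25. From Iso-4 to Iso-14, 12.8% were called lower. Between the kinds on day 4, 0.600% were called in either direction. Of 28 listed, 24 were tested, and 18 were higher and 1 lower in Iso-4 than in Native-0. From Iso-4 to Iso-14, 11 were lower. In allografts against isografts 2 were higher on day 4, 13 on day 14 and 11 on day 25, where 2 were lower. Fcgr1, a high-affinity antibody receptor of monocytes and macrophages, differed most on day 14 (2.76 ± 0.45, adjusted p 2.67e-05). The mean log2 level of the 24 genes ranged from 6.57 to 7.14 in Native-0, 8.77 to 9.05 in Iso-4, 8.04 to 8.35 in Iso-14 and 7.60 to 8.87 in Iso-25. In allografts it ranged from 8.91 to 9.46 on day 4, 8.84 to 9.39 on day 14 and 8.80 to 9.61 on day 25. It thus separated Iso-14 from Allo-14 without overlap, as Ccl2, Ccl7 and Ccl8 did. The means of NK and cytotoxic markers and of epithelial markers, given below, separated these groups too. The share of all probe sets that did so was not counted. No value on this scale was at 0, the lowest of any array being 0.317, so a low reading does not show that a marker was present. Itgam, a myeloid integrin, was under log2 5 in all arrays of Native-0, Iso-14 and Iso-25, and Csf1r, the macrophage growth factor receptor, was above 5 in all arrays, with means of 10.41 in Iso-4 and 10.76 in Iso-14. Cd14, a monocyte coreceptor for bacterial products, ran the other way on day 25, with means of 6.68 in Allo-25 and 8.12 in Iso-25. On that day the means in Allo-25 and Iso-25 were 9.92 and 7.52 for Adgre1, 9.55 and 8.78 for Cd68, and 11.25 and 10.64 for Csf1r. From Iso-4 to Iso-14 the means went from 9.62 to 8.80 for Cd68, from 8.79 to 8.13 for Adgre1 and from 8.54 to 7.48 for Cd14. The part of monocyte and macrophage content in the members' differences was not tested.

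Other cell types moved as well. On day 14, 6 of 6 tested NK and cytotoxic markers and 5 of 10 T cell markers were higher in allografts, and 11 of 12 airway epithelium markers were lower. The mean level of the NK and cytotoxic markers ranged from 4.78 to 5.05 in Iso-14 and 7.09 to 8.40 in Allo-14, and that of the epithelial markers from 10.48 to 11.30 and from 4.85 to 7.40. From Iso-4 to Iso-14, when Ccl2 and Ccl7 fell, 5 of 8 neutrophil markers were lower and 1 higher, and 7 of 12 epithelial markers were higher. Of 7 B and plasma cell markers 1 was higher and 1 lower in allografts on day 14, and 4 were higher and 1 lower on day 25. Ighm, the heavy chain of immunoglobulin M, differed by 3.43 ± 0.76 on day 14 (adjusted p 0.00123) and 4.21 on day 25 (adjusted p 1.03e-04), while the B cell gene Cd79a was under log2 5 in all arrays. The part of these cell types in the members' differences was not tested.

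Other genes of the CC chemokine system gave a mixed picture. Of 16 other CC chemokines 8 were tested, and 5 were higher in Allo-14 than in Iso-14, with a median of 1.02. On day 25, 2 were higher and 1 lower. Ccl5, an attractant of T cells and monocytes, differed by 2.84 ± 0.38 on day 14 (adjusted p 9.47e-07) and 3.03 on day 25 (adjusted p 2.32e-07). It had no called change from Iso-4 to Iso-14 (-0.25, adjusted p 0.697). Ccl9, a myeloid chemokine, differed by 1.51 ± 0.36 on day 14 (adjusted p 0.00261), fell by 2.60 from Iso-4 to Iso-14 (adjusted p 3.22e-06) and was not called on day 25 (1.00, adjusted p 0.0589).

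Among 15 other CC and atypical chemokine receptors only 5 were tested, and 3 were higher in Allo-14 than in Iso-14. Ccr1, a receptor of Ccl3, Ccl5 and Ccl7 on myeloid cells, was higher on day 14 by 2.88 ± 0.48 (adjusted p 3.19e-05). It had fallen by 3.45 from Iso-4 to Iso-14 (adjusted p 3.21e-06) and on day 25 had a value of -0.34 (adjusted p 0.733). Ackr3, an atypical receptor of Cxcl12, was higher on day 14 by 1.25 ± 0.35 (adjusted p 0.00991), with a value of -0.11 on day 25.

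Of 20 cytokines and feedback genes of the NF-kB and interferon routes that induce these chemokines, 11 were tested, and 7 were higher in Allo-14 than in Iso-14 and 2 on day 25. Ptgs2, the inducible prostaglandin synthase, differed by 2.02 ± 0.48 on day 14 (adjusted p 0.00236) and Il1b, interleukin-1 beta, by 1.86 ± 0.51 (adjusted p 0.00835). Both had fallen in isografts from day 4 to day 14, Ptgs2 by 3.30 (adjusted p 6.81e-06) and Il1b by 2.15 (adjusted p 0.00249). On day 25 neither was called (Ptgs2 0.43, Il1b -0.94).

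Of 24 genes of Ccr2 signalling and chemokine handling 19 were tested. On day 25, 3 of them were higher and 2 lower in allografts. In Allo-14, 4 were higher than in Iso-14, where 10.0% of all probe sets were. Mmp3, a matrix protease able to clip CC chemokines, differed by 1.43 ± 0.42 (adjusted p 0.0147), and Gng2, a G protein gamma subunit, by 1.33 ± 0.22 (adjusted p 2.65e-05). Like Ccl8, Mmp3 was far above native trachea in Iso-4 (4.16 ± 0.42, adjusted p 3.13e-09) and had no called change from Iso-4 to Iso-14 (-0.42, adjusted p 0.528).

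By likeness of the 7 group means among 8305 other genes, Ccl2 was nearest to Tomm70a, a mitochondrial import receptor, Dctpp1, a nucleotide-cleaning enzyme, and Bub1b, a mitotic checkpoint kinase, with Pearson correlations of 0.995, 0.990 and 0.989. Ccl7 was nearest to Calu, Nup93 and Msn (0.994, 0.993 and 0.983). Ccl8 was nearest to the collagen gene Col3a1, the receptor kinase Ror2 and Mmp3 (0.996, 0.994 and 0.991). Ccl12 was nearest to the inhibitory antibody receptor Fcgr2b, the metalloprotease Adam19 and Igsf6, an immunoglobulin-family gene of myeloid cells (0.993, 0.989 and 0.989). Ccr2 was nearest to Svbp, Capza1 and B4galt6 (0.995, 0.994 and 0.993). Over the 35 single arrays these correlations were lower, from 0.65 for Dctpp1 with Ccl2 to 0.95 for Fcgr2b with Ccl12. With 7 means from the same arrays and so many genes, high values arise readily, and they describe the shape of the course only.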

How the data were processed

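Log2 expression values of 35 arrays of mouse trachea were used as deposited. The authors made them with GCRMA 1.1.3, per the submitters' processing notes, which gives background-corrected log2 values normalized between arrays; scanner files were not used here. Gene names came from the platform annotation: of 22626 probe sets that are not controls, 20380 had 1 gene, 691 several and 1555 none.

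Probe sets with a log2 value of at least 5 in at least 5 arrays (13678) entered 1 limma fit (limma 3.58.1, R 4.3.3) of 7 group means with 28 residual degrees of freedom, and p-values were adjusted by Benjamini-Hochberg within each contrast. The fit was tested on simulated data. A gene with several probe sets was represented by the brightest over all arrays. A rule for named genes gave all members and the 3 nearest genes to each member by group means. From each list it gave the 2 genes with the largest called difference between Allo-14 and Iso-14 (1 for markers). Not all of its marker and reference genes are named in the text. Scgb1a1, Col2a1, Itgam, Csf1r, Cd14, Cd68, Adgre1, Cd79a and Ccl11 were named outside that rule. The labels do not say whether arrays of the same replicate number belong together. Deviations of such arrays had a mean correlation of 0.02 over 105 pairs (-0.42 to 0.47, 40 over 0.1). No block was used in the main fit, and results with it are given below. Correlations and permutation tests used scipy 1.17.1. The members and lists were chosen with earlier results of these data known, and the within-array tests of unequal change were added after the values had been seen. The number of arrays limits the precision.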

Additional observations from a re-analysis of the deposited data

Results flagged for a closer look

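The allograft-isograft difference changed between days for 3 members, by a direct test in limma. For Ccl2 it grew by 2.54 from day 4 to day 14. For Ccl7 it grew by 3.62 from day 4 to day 14 and by 2.51 from day 4 to day 25. For Ccl8 it grew by 2.55 from day 4 to day 25, a call that depended on single arrays as given above.

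In the dim Ccr2 probe set 1421187_at, Native-0 replicate 4 (4.45) lay far above the other native arrays, its gap to the next being 0.749 of the group's range. It was the only such array among 49 groups examined, and chance flags about 1 in 20.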

How the results depend on the processing

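Of the 26 calls of a member against native trachea, none was lost when 1 array was left out. The numbers of members called in each allograft-isograft comparison stayed within 1 of those given.

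Fitting the replicate number as a block (replicate block) brought Ccl2 in Allo-25 against Iso-25 to an adjusted p of 0.0496 (1.06), called 1 member from Allo-4 to Allo-14, and called 4 for the change of the difference from day 4 to 25; 8 of 35 arrays correlated best with their own number. Array weights called Ccl2 on day 25 (1.44), 1 member from Allo-4 to Allo-14, and 4 members for the change from day 4 to both later days. Without the 2 arrays that stood apart, Ccl2 on day 25 was 1.37, 1 member was called from Allo-4 to Allo-14, 4 for day 4 to 25 and 3 for day 4 to 14. With only the arrays compared, Ccl12 on day 25 (1.93) was lost, 4 members were called for day 4 to 14 and 1 for day 4 to 25. Median centring called 1 member from Allo-4 to Allo-14. Reference-gene centring gave 1.32 for Ccl8 on day 14, uncalled. Ccr2 on day 25 was called with 1421188_at (1.03) and with the mean of its probe sets (1.30). The cause was not tested.

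Uncalled values changed sign in these cases. With values raised to 4, Ccl7 in Iso-14 against native was -0.15, Ccl12 in the change of the difference from day 14 to 25 was -0.033 and Ccl2 against Ccl7 from Iso-4 to Iso-14 was -0.42. From Iso-14 to Iso-25, Ccl2 was -0.020 with median centring, and Ccl2 and Ccl7 were -0.21 and -0.23 with array weights and -0.20 and -0.21 without the 2 arrays that stood apart. Without those, Ccl7 in Iso-25 against native was -0.10. Ccr2 in the change from day 14 to 25 was -0.029 with array weights and -0.077 without the 2 arrays. From Allo-14 to Allo-25, Ccr2 was 0.72 with 1421187_at, 0.17 with 1421188_at and 0.21 with the mean. The correlation of Ccr2 was 0.14 with Ccl2 and 0.17 with Ccl7 without the 2 farthest arrays, and 0.0071 with Ccl7 without those that stood apart.

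Leaving out 1 array at a time gave these ranges. Allograft against isograft: Ccl2 on day 25, 0.88 to 1.37; Ccl8 on day 14, 1.30 to 1.77; Ccl12 on day 4, -0.31 to 0.15. Against native trachea, Ccl2 in Iso-14 ran from -0.015 to 0.91 and Ccl7 in Iso-25 from -0.0072 to 0.91. From Iso-14 to Iso-25, Ccl2 ran from -0.20 to 0.27, Ccl7 from -0.21 to 0.49, Ccl8 from -0.73 to 0.23 and Ccl12 from -0.71 to 0.18. Ccl7 from Allo-4 to Allo-14 ran from -0.27 to 0.16 and Ccl12 from Allo-14 to Allo-25 from -0.38 to 0.11. The change of the difference from day 14 to 25 ran from -0.26 to 0.63 for Ccl12 and from -0.24 to 0.27 for Ccr2. Members called ran from 0 to 1 from Allo-4 to Allo-14, from 2 to 3 for day 4 to 14 and from 1 to 4 for day 4 to 25. Within arrays on day 14, Ccl2 against Ccl12 ran from -0.17 to 0.36, Ccl2 against Ccl8 from -0.037 to 0.45 and Ccl8 against Ccl12 from -0.40 to 0.11; Ccl8 against Ccr2 from Iso-4 to Iso-14 ran from -0.024 to 0.84.

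Probe sets called moved by over 1.5 times in some comparisons. In Iso-4 against native they were 6054, 10007 with no filter and 3875 with a filter at 7, and in Iso-14 3935, 6154 and 2530. That filter, which drops Ccl7, gave 4033, 3952 and 3171 in Allo-4, Allo-14 and Allo-25 in place of 6128, 6305 and 4920. Array weights gave 3549 in place of 2203 in Iso-25, 1843 in place of 1093 from Allo-4 to Allo-14, and 1433 and 1287 in place of 873 and 708 for the change from day 4 to days 14 and 25. With only the arrays compared, day 4 gave 51 in place of 82. Without Native-0 replicate 1, Iso-25 gave 1425. Without Allo-14 replicate 3, the change from day 14 to 25 gave 96 in place of 146. From Iso-14 to Iso-25, 0 became 11 without the 2 arrays that stood apart and 1, 2 and 8 without Iso-25 replicate 1, 2 or 5. Reference-gene centring shifted the median of all probe sets by -0.24 on day 14 and -0.23 on day 25, and by up to -0.40 against native trachea (Allo-14), where 2973 higher and 3332 lower became 1566 and 6416. Of the 8 reference genes, 4 were themselves called higher in Allo-14 than in native trachea and 0 lower.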
